A study of Mus musculus with 17 samples.

Results

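The chemokine family of the mouse, meaning the secreted chemokine ligands, their receptors and the atypical receptors, was followed in whole kidneys of 5 genotype groups. Members were all protein-coding genes whose symbol begins with Ccl, Cxcl, Cx3cl, Xcl, Ccr, Cxcr, Cx3cr, Xcr or Ackr followed by a digit. The rule used names only, and it found 67 of the 35971 genes in the files: 44 ligand genes, 19 receptor genes and 4 atypical receptor genes, under 62 symbols, because Ccl19, Ccl21a, Ccl21b and Ccl27 are also annotated as copies on unplaced scaffolds.

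All 17 libraries came from mice that carry the fusion gene PRCC-TFE3 in the Rosa26 locus behind a lox-stop-lox cassette, so that it is expressed only after Cre recombination. The 4 Cre(-) mice had no KSP-Cre, and replicates 1 and 2 of them also carried floxed HIF1a alleles (HIF1af/f) while replicates 3 and 4 carried no floxed HIF gene. The 3 KI mice had KSP-Cre, the 4 HIF1a KO mice had KSP-Cre and HIF1af/f, the 3 HIF2a KO mice had KSP-Cre and HIF2af/f, and the 3 DKO mice had KSP-Cre and both floxed genes. KSP-Cre is driven by the promoter of cadherin 16, a protein of kidney tubule epithelium, so recombination is restricted to epithelial cells and blood-borne or stromal cells keep their HIF genes. The labels give no age.

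PRCC-TFE3 is a fusion oncoprotein of translocation renal cell carcinoma, in which the transcription factor TFE3 of the MiT family is joined to PRCC. Chemokines are small proteins that bind heparan sulfate and G protein-coupled receptors on leukocytes and direct their migration along a gradient. Inflammatory chemokines are induced by NF-kB, interferons and other signals, homeostatic ones are made steadily by stroma and epithelium, and atypical receptors bind chemokines without G protein signalling and remove them. In an injured kidney both tubule cells and infiltrating macrophages are sources of chemokines.

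The libraries held 16504419 to 24668827 counts each (median 18635282). Values are given as counts-per-million on normalized library sizes (CPM) in replicate order, and 3 counts in 1 library correspond to 0.117 to 0.206 CPM. Levels of different genes are compared only in transcripts-per-million (TPM), which account for transcript length. The summed CPM of 6 leukocyte markers was 59.0 to 70.8 in Cre(-), 124 to 290.3 in KI, 176 to 327 in HIF1a KO, 231 to 361 in HIF2a KO and 237 to 342 in DKO, and that of 8 kidney tubule markers was 16378 to 18960 in Cre(-) and 1958 to 7556 in the 13 libraries with Cre. All groups with Cre were uneven in lymphocyte content. Summed B cell markers were 9.59, 89.9 and 4.51 CPM in KI replicates 1, 2 and 3, and 65.8, 22.6 and 17.4 CPM in the HIF2a KO replicates. They were 15.3, 6.38, 61.6 and 32.1 CPM in HIF1a KO, 46.0, 53.9 and 16.2 in DKO and 2.02 to 4.63 in Cre(-). KI replicate 2 also held 1699 CPM of adipocyte markers, against at most 245 in any other library. The summed counts of Hif1a (162 to 198 CPM in HIF1a KO, 184 to 231 in KI) and Epas1, the gene of HIF2a (136 to 149 in HIF2a KO, 173 to 192 in KI), cover the whole gene, and recombination in 1 cell type of a whole kidney cannot be checked with them. Library numbers largely follow the groups, so library order and genotype cannot be told apart.

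On the TPM scale the family made up a larger part of the transcriptome in the kidneys with Cre. The TPM of all members summed to 290.4 ± 18.1 (SD, n = 4) in Cre(-), 636 ± 85.8 (n = 3) in KI, 674 ± 27.3 (n = 4) in HIF1a KO, 785 ± 87.5 (n = 3) in HIF2a KO and 809 ± 35.5 (n = 3) in DKO. No Cre(-) library (274.6 to 307) overlapped with any library with Cre (562 to 865). All tested genes shifted upward on this scale too. Their median log2 fold change on log2(TPM + 1) was 0.35 to 0.45, and limma called 52.0% to 58.8% of them higher against Cre(-). In Cre(-) kidneys the leading member was Cxcl12, at 72.8 ± 5.88 TPM or 25.1% of the family, followed by Cxcl16 (37.6 ± 2.63), Cx3cl1 (30.1 ± 1.40) and the atypical receptor Ackr3 (19.9 ± 0.847). In KI the order was Cxcl12 (121 ± 20.3), Cxcl16 (102 ± 11.2) and Cxcl13 (69.2 ± 49.4), and neither Cxcl12 and Cxcl16 nor Cxcl16 and Cxcl13 differed beyond their spread. In HIF1a KO, HIF2a KO and DKO Cxcl16 stood first, at 124 ± 6.68, 148 ± 26.5 and 154 ± 16.9 TPM, and Cxcl12 second, at 88.9 ± 6.39, 91.6 ± 13.2 and 103 ± 2.81 TPM.

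Of the 67 members, 53 had enough counts to be tested (35 ligands, 15 receptors and 3 atypical receptors). In KI against Cre(-) kidneys, 23 members were higher and 8 lower (edgeR, adjusted p under 0.05), against a background of 31.6% of all 17011 tested genes called higher and 29.3% lower. These are 43.4% and 15.1% of the tested members. In HIF1a KO against Cre(-) 28 were higher and 6 lower, or 52.8% and 11.3% (background 31.9% and 30.1%). In HIF2a KO 35 were higher and 4 lower, or 66.0% and 7.55% (background 32.0% and 29.9%), and in DKO 33 were higher and 4 lower, or 62.3% and 7.55% (background 30.4% and 27.9%). The median log2 fold change over the 53 members was 0.96, 1.08, 1.67 and 1.72 in the 4 comparisons, and that of all tested genes 0.02 to 0.03. All 4 comparisons share the Cre(-) libraries, and members that are low in Cre(-) entered the test through the groups in which they were higher, so these counts are a description.

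The share of members called higher depends on the scale. On log2(TPM + 1) with limma, all genes shifted upward by a median of 0.38 (KI), 0.35 (HIF1a KO), 0.43 (HIF2a KO) and 0.45 (DKO), and the share of higher calls among all called genes went from 51.9% to 78.2%, from 51.5% to 79.1%, from 51.7% to 82.0% and from 52.1% to 84.4%. On this scale 24 members were higher and 3 lower in KI against Cre(-) (background 52.0% and 14.4%), 33 and 1 in HIF1a KO (53.2% and 14.0%), 39 and 0 in HIF2a KO (56.3% and 12.4%), and 39 and 1 in DKO (58.8% and 10.8%). The members' share of higher calls in KI was thus above the background on the count scale and below it on the TPM scale.

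**Figure D1:**
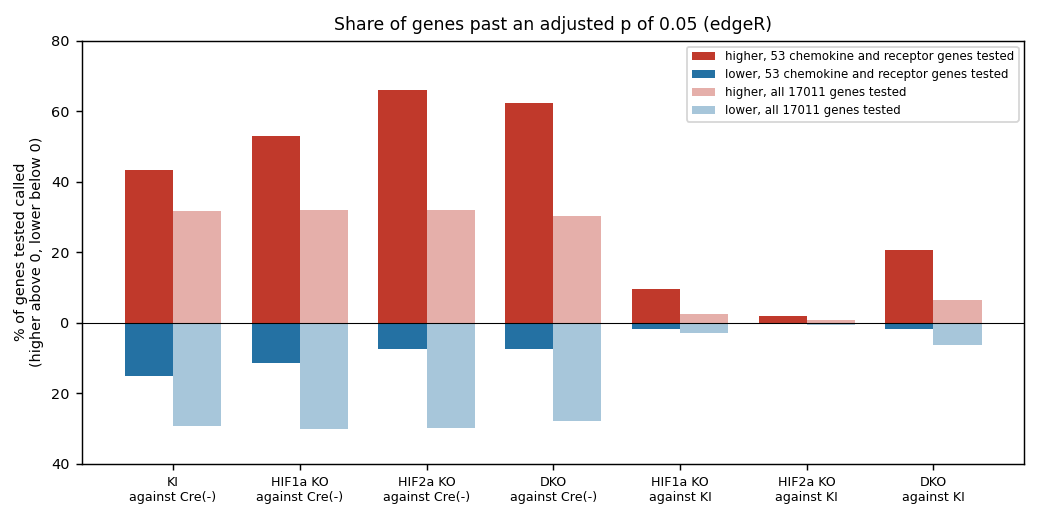
Percent of the 53 tested chemokine family members and of all 17011 tested genes that were called higher or lower (edgeR, adjusted p under 0.05) in 7 comparisons. Members called higher exceeded the background in the 4 comparisons with Cre(-), from 43.4% against 31.6% in KI to 66.0% against 32.0% in HIF2a KO, but on log2(TPM + 1) the share in KI fell below its background.

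Across the 4 comparisons with Cre(-), 18 members were higher in every one, among them Ccl2, Ccl6, Ccl7, Ccl8, Ccl9, Ccl12, Ccl20, Cxcl1, Cxcl2, Cxcl5, Cxcl10, Cxcl13, Cxcl16, Cxcl17, Cxcr1, Cxcr4 and Cxcr5. These 18 are 34.0% of the tested members, beside 23.2% of all tested genes higher in all 4. Members absent or low in Cre(-), such as Cxcr1, entered the test through the groups with Cre, so this share too is a description. Another 21 were higher in some and lower in none. The 3 called lower in every one (5.66%, background 22.4%) were Ccl25, Ccl27a and Cxcr2, and Ackr3, Ackr4, Ccr9, Ccr10 and the scaffold copy of Ccl21a were lower in some; on the TPM scale the sign turned for Ccl25 in KI, for Ccl27a in KI, HIF2a KO and DKO, for Ccr9 in HIF2a KO and for Ackr3 in DKO. Members called lower on log2(TPM + 1) numbered only 3 in KI, 1 in HIF1a KO, 0 in HIF2a KO and 1 in DKO. On the count scale no call was made in any of the 4 for Ccl11, Ccl24, Ccl21c, the first scaffold copy of Ccl21b, Cxcr6 and Xcr1.

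**Figure D2:**
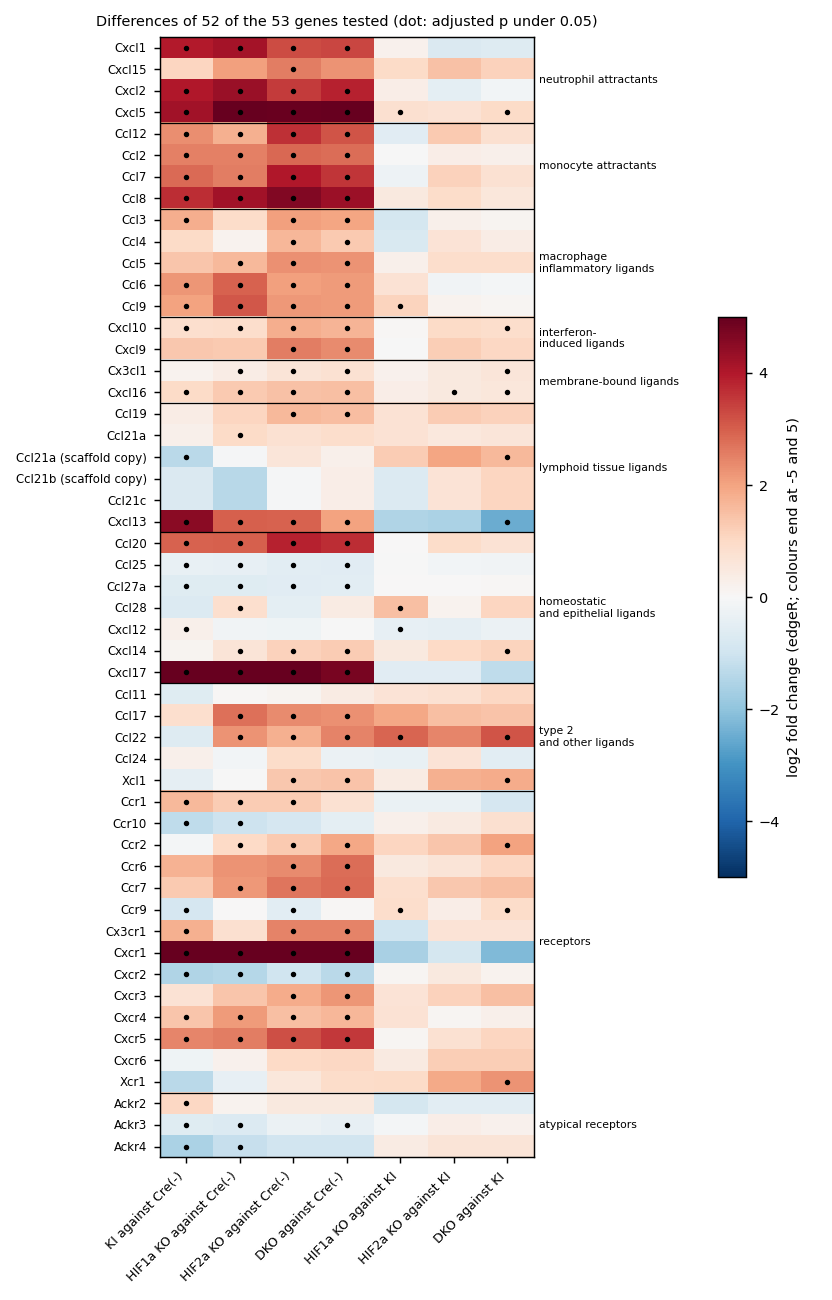
Log2 fold changes (edgeR, count scale) of 52 of the 53 tested members, in rows by role, in 7 comparisons in columns, where a dot marks an adjusted p under 0.05. The 4 columns against Cre(-) hold 30, 33, 38 and 36 dots and the 3 columns against KI hold 6, 1 and 12; the sign of Ccl25 in KI, Ccl27a in KI, HIF2a KO and DKO, Ccr9 in HIF2a KO and Ackr3 in DKO turns on the TPM scale.

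Promoter sequence was read for the members with a RefSeq entry (GRCm38.p6), which were 46 of the 62 symbols, over the 250 bases before the RefSeq start. The NF-kB type motif (GGG, any 3 bases, then TTCC), searched on both strands like the others, was in 4.65% of 32851 promoters of all genes and in 9 of the 46 members (19.6%). The hypoxia response type core ACGTG was in 16.6% of all and in 7 members (15.2%), and the MiT family E-box CACGTG, which contains ACGTG, was in 6.02% of all and in 2 members (4.35%), Cxcl3 and Xcr1. A match describes letters in this window and no site or binding. Of the 9 with the NF-kB type motif, Cxcl1, Cxcl2, Ccl9, Ccl20 and Cxcl10 were called higher in all 4 comparisons with Cre(-). Over all tested members this held for 34.0%, and over all tested genes for 23.2%. The other members higher in all 4 are not among the 9. For 16 of the 62 symbols no promoter was read, so absence from the 9 need not mean absence of the motif. Whether the motif goes with the calls was not tested. The windows of these 5 are shown because they hold the motif and were called in every such comparison. Capitals mark the motif matches, and each sequence is in the direction of transcription.
Cxcl1, chr5:90890995-90891244, plus strand: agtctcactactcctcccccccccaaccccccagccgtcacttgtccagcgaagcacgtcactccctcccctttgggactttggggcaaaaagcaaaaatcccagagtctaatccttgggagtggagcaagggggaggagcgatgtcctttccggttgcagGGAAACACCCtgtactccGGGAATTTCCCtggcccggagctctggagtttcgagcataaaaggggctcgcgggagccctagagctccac
Cxcl2, chr5:90903649-90903898, plus strand: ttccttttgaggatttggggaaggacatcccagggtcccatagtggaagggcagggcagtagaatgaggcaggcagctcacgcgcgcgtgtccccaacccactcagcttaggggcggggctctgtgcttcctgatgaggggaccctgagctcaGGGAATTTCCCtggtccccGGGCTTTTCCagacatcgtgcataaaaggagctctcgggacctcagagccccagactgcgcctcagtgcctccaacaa
Ccl9, chr11:83578637-83578886, minus strand: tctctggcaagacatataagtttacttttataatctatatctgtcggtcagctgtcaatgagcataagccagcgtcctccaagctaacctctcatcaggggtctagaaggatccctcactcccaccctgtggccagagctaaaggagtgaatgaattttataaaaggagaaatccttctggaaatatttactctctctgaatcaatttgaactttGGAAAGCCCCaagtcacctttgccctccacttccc
Ccl20, chr1:83116516-83116765, plus strand: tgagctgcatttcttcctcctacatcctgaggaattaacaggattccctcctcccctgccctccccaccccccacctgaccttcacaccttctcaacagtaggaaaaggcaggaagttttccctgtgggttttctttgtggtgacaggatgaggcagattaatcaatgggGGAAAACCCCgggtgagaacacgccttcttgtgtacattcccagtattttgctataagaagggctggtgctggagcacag
Cxcl10, chr5:92348890-92349139, minus strand: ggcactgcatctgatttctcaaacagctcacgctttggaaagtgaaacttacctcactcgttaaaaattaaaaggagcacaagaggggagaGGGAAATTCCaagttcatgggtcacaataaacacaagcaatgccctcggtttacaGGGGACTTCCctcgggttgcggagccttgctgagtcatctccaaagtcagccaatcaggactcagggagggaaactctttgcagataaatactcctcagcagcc
Cxcl1 and Cxcl2 each held 3 overlapping or neighbouring matches in 2 runs. The first bases of these matches lay 70 to 97 bases before the start. Cxcl10 held 2, Ccl9 and Ccl20 1 each. The other 4 members with the motif were Cxcl3, Ccl1 and Ccr3, which were too low to be tested, and Ccr6, which was called higher in HIF2a KO and DKO only.

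The neutrophil attractants that signal through Cxcr2 had among the largest differences from Cre(-) kidneys in every group with Cre. Of 4 tested members of this group, 3 were higher in KI, 3 in HIF1a KO, 4 in HIF2a KO and 3 in DKO, and none lower. Cxcl1 (chr5:90891241-90893115), a main neutrophil attractant of the mouse, was at 0.480, 0.481, 0.860 and 0.505 CPM in Cre(-) libraries and 6.66, 6.89 and 14.0 in KI. In HIF1a KO Cxcl1 was at 12.1, 16.1, 7.32 and 6.87, in HIF2a KO at 4.62, 8.22 and 3.89 and in DKO at 5.35, 6.05 and 6.39 CPM. Every library with Cre was above every Cre(-) library, and Cxcl1 was 15.7-fold higher in KI (log2 fold change 3.98, SE 0.41, adjusted p = 6.86e-07), 18.1-fold in HIF1a KO, 9.57-fold in HIF2a KO and 10.2-fold in DKO. Its neighbour Cxcl2 (chr5:90903871-90905938), which macrophages and epithelium make upon NF-kB activation, was at 0.137, 0.107, 0.198 and 0 CPM in Cre(-) libraries and 1.44, 0.861 and 3.19 in KI. The HIF1a KO values were 2.57, 2.49, 1.54 and 2.65, those of HIF2a KO 1.17, 1.88 and 0.809 and those of DKO 1.75, 1.26 and 1.90 CPM. Here too no Cre(-) library reached any library with Cre, and the difference was 15.8-fold in KI (log2 fold change 3.98, SE 0.59, adjusted p = 2.64e-05) and 20.0-, 11.2- and 14.2-fold in HIF1a KO, HIF2a KO and DKO.

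Cxcl5 (chr5:90759360-90761624), an epithelial attractant of neutrophils, was close to the detection floor in Cre(-) kidneys and tightly grouped elsewhere. It was at 0.0685, 0.107, 0.0662 and 0.0631 CPM in Cre(-) libraries and 1.61, 1.29 and 1.71 in KI. With HIF1a deleted Cxcl5 was at 2.93, 2.54, 2.59 and 2.81, with HIF2a deleted at 2.12, 3.15 and 2.43 and with both deleted at 3.46, 2.63 and 2.88 CPM. The KI libraries lay between the Cre(-) libraries and those of the 3 HIF deletion groups without overlap on either side. The difference from Cre(-) was 18.3-fold in KI (log2 fold change 4.20, SE 0.28, adjusted p = 1.04e-08), 32.4-fold in HIF1a KO, 30.6-fold in HIF2a KO and 35.6-fold in DKO (log2 fold change 5.16, SE 0.27, adjusted p = 2.11e-09). Against KI, Cxcl5 was 1.77-fold higher in HIF1a KO (log2 fold change 0.82, SE 0.20, adjusted p = 0.0285). This call was lost without KI replicates 1 and 2 and HIF1a KO replicates 1, 3 and 4, each left out in turn (0.71 to 0.85, adjusted p from 0.0561 to 0.104). It was 1.94-fold higher in DKO (log2 fold change 0.96, SE 0.21, adjusted p = 0.0101), which held without each library, and in HIF2a KO the value was 1.67-fold (0.74, adjusted p = 0.0803). Cxcl15, a granulocyte attractant best known from lung, was called in HIF2a KO only among these comparisons (2.57, adjusted p = 0.0238), and this rested on replicate 3: libraries ranged from 0.0535 to 0.206 CPM in Cre(-) and were at 0.259, 0.306 and 1.82 CPM in HIF2a KO. The call was lost without Cre(-) replicates 2 and 4 and HIF2a KO replicate 3, each left out in turn (1.12 to 2.36, adjusted p from 0.0584 to 0.322). Cxcl3 was not tested, with at most 0.195 CPM in any library.

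The receptors of this group went in opposite directions. Cxcr2 (chr1:74153989-74161246), the receptor of Cxcl1, Cxcl2 and Cxcl5 on neutrophils, was at 3.63, 2.51, 5.49 and 3.91 CPM in Cre(-) libraries and 1.03, 1.78 and 1.25 in KI. Cxcr2 was at 1.61, 1.50, 1.54 and 1.13 CPM in HIF1a KO, 2.20, 1.57 and 1.97 in HIF2a KO and 1.66, 1.47 and 1.41 in DKO. All libraries with Cre lay below all Cre(-) libraries, and Cxcr2 was lower by 2.85-fold in KI (log2 fold change -1.51, SE 0.27, adjusted p = 0.000175), 2.68-fold in HIF1a KO, 2.02-fold in HIF2a KO and 2.55-fold in DKO. Cxcr1 (chr1:74191785-74194631), the adjacent receptor gene on the other strand, had no count in any Cre(-) library, whereas it was at 2.07, 2.05 and 5.99 CPM in KI, 1.01, 0.571, 0.498 and 2.22 in HIF1a KO, 0.345, 0.918 and 4.20 in HIF2a KO and 1.46, 0.369 and 0.341 in DKO. Against a floor of 3 counts over the 4 Cre(-) libraries together, Cxcr1 was at least 72.1-fold higher in KI, 23.1-fold in HIF1a KO, 39.0-fold in HIF2a KO and 15.5-fold in DKO (adjusted p = 0.00033, 0.0024, 0.00106 and 0.0073). With no count in Cre(-), Cxcr1 entered the test only through the groups with Cre. Its direction was thus fixed beforehand, and these p-values are no support for it. Within HIF2a KO Cxcr1 varied over a wide range, replicate 3 being the highest. Of the 5 neutrophil markers listed, Ly6g and Retnlg were at or near 0, with at most 0.0662 and 0.189 CPM in any library. The granulocyte receptor Csf3r was higher in every group with Cre. S100a8 was called higher in HIF2a KO (1.86, adjusted p = 0.0416) and not in KI (1.79, adjusted p = 0.0535), HIF1a KO or DKO, and S100a9 was called in no group. The 5 neutrophil markers summed to 1.50 to 3.91 CPM in Cre(-), 4.79 to 6.15 in KI, 4.20 to 8.61 in HIF1a KO, 6.73 to 8.09 in HIF2a KO and 7.17 to 8.42 in DKO.

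**Figure D3:**
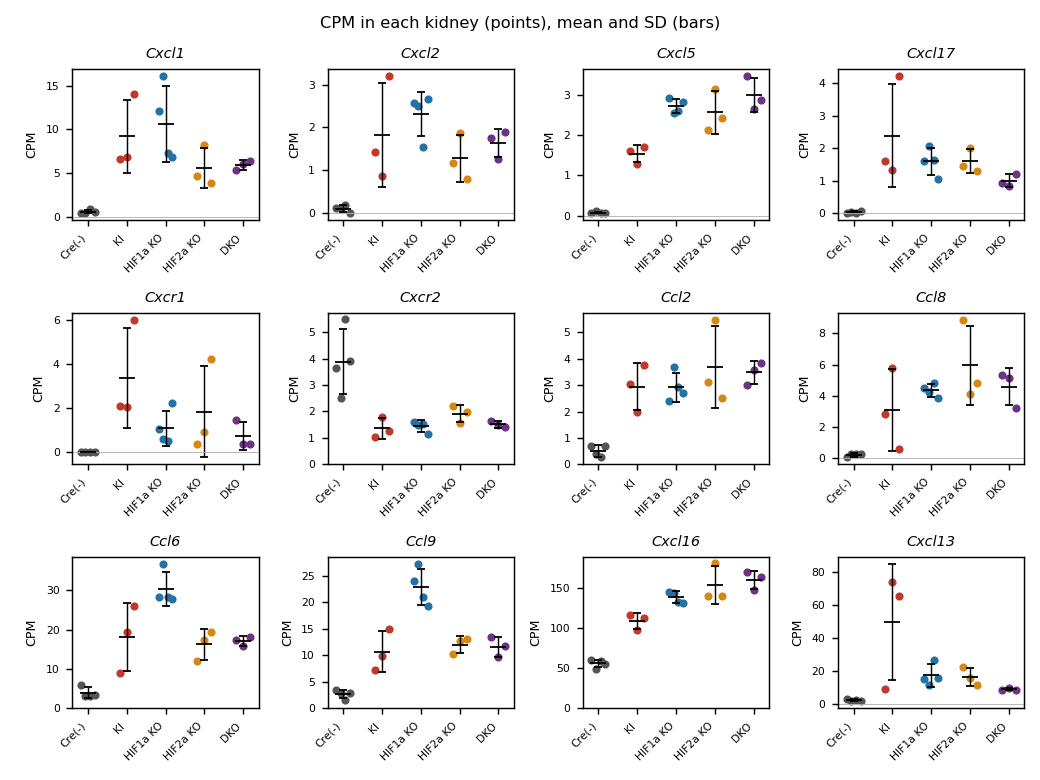
CPM of 12 members by library in the 5 groups, with points for libraries and bars for the mean and SD. For Cxcl1, Cxcl2, Cxcl5, Cxcl17, Cxcr1, Ccl2, Ccl8, Ccl9, Cxcl16 and Cxcl13 every library with Cre lay above every Cre(-) library, Ccl6 did so too, and Cxcr2 lay below.

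Monocyte attractants of the chromosome 11 cluster were higher in every group with Cre. All 4 (Ccl2, Ccl7, Ccl8 and Ccl12) were called higher in each of the 4 comparisons with Cre(-), while Ccl11, the eosinophil attractant between them, was called in none, and Ccl1 at the end of the cluster (82035571 to 82305690) was too low to be tested. Ccl2 (chr11:82035571-82037453), the main ligand that draws Ccr2-bearing monocytes, was at 0.685, 0.374, 0.265 and 0.694 CPM in Cre(-) libraries and 3.04, 1.99 and 3.76 in KI. Of the HIF deletion groups, HIF1a KO had 2.39, 3.68, 2.94 and 2.69, HIF2a KO 3.11, 5.47 and 2.53 and DKO 3.02, 3.58 and 3.85 CPM. No library with Cre overlapped with Cre(-), and the 4 groups with Cre overlapped with each other. Ccl2 was 5.78-fold higher in KI (log2 fold change 2.53, SE 0.35, adjusted p = 1.48e-05), 5.77-fold in HIF1a KO, 7.31-fold in HIF2a KO and 6.87-fold in DKO.

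Ccl7 (chr11:82045712-82047525), a second Ccr2 ligand, was at 0.274, 0, 0.0662 and 0.252 CPM in Cre(-) libraries and 1.49, 1.08 and 0.570 in KI. Values of Ccl7 were 0.836, 1.30, 0.946 and 0.468 CPM in HIF1a KO, 1.73, 3.45 and 1.87 in HIF2a KO and 2.43, 1.63 and 1.22 in DKO. Its difference from Cre(-) was 7.07-fold in KI (2.82, adjusted p = 0.00126 on the log2 scale) and 15.8-fold in HIF2a KO (3.99, adjusted p = 4.08e-05), with every library with Cre above Cre(-). Ccl12 (chr11:82101845-82103400), the rodent relative of Ccl2, was at 0.480, 0.535, 0.331 and 0.126 CPM in Cre(-) libraries and 3.16, 2.10 and 0.456 in KI. Ccl12 stood at 0.836, 1.82, 1.74 and 0.702 CPM in HIF1a KO, 4.75, 6.08 and 3.49 in HIF2a KO and 4.19, 2.68 and 3.17 in DKO. KI replicate 3 lay within the Cre(-) range, all other libraries with Cre lay above it, and the DKO libraries overlapped with KI replicate 1. The difference was 5.07-fold in KI (log2 fold change 2.34, SE 0.57, adjusted p = 0.0022), 3.38-fold in HIF1a KO, 12.7-fold in HIF2a KO and 8.89-fold in DKO. Ccl8 (chr11:82115185-82116799), which macrophages make, was at 0.0685, 0.267, 0.265 and 0.315 CPM in Cre(-) libraries and 2.87, 5.81 and 0.627 in KI. HIF1a KO kidneys held 4.54, 4.26, 4.83 and 3.86, HIF2a KO 8.85, 4.15 and 4.86 and DKO 5.35, 5.16 and 3.22 CPM. KI replicate 3 was again the lowest of the libraries with Cre. Ccl8 was 13.1-fold higher in KI (log2 fold change 3.71, SE 0.61, adjusted p = 7.63e-05), 18.3-fold in HIF1a KO, 25.0-fold in HIF2a KO and 19.2-fold in DKO.

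The receptor of Ccl2 and Ccl7 was not called in KI. Ccr2 (chr9:124101950-124113557), the defining receptor of inflammatory monocytes, was at 10.7, 8.29, 4.96 and 4.80 CPM in Cre(-) libraries and 11.2, 6.24 and 2.91 in KI. In HIF1a KO Ccr2 was at 10.5, 12.6, 18.8 and 14.8, in HIF2a KO at 22.3, 15.1 and 16.5 and in DKO at 23.1, 30.3 and 28.0 CPM. KI libraries spanned the Cre(-) range (log2 fold change -0.08, adjusted p = 0.86), and DKO libraries lay above all others. Ccr2 was 1.98-fold higher than in Cre(-) in HIF1a KO (0.98, adjusted p = 0.0179 on the log2 scale), 2.50-fold in HIF2a KO (1.32, adjusted p = 0.00415) and 3.78-fold in DKO (1.92, adjusted p = 0.000246). The call in HIF1a KO was lost without Cre(-) replicates 3 and 4 and HIF1a KO replicate 3, each left out in turn (0.82 to 0.84, adjusted p from 0.0567 to 0.0578). Against KI, Ccr2 was 4.00-fold higher in DKO (log2 fold change 2.00, SE 0.39, adjusted p = 0.00573), a call that held without each library, and the values in HIF1a KO (2.09-fold, adjusted p = 0.101) and HIF2a KO (2.65-fold, adjusted p = 0.0714) did not pass. The interaction of the deletions asks whether DKO differed from KI by more than the single deletions add up to. In edgeR it called 0 of all 17011 tested genes, so it cannot tell this for Ccr2.

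The macrophage inflammatory ligands lie in a second block on chromosome 11 (83525778 to 83664683). Of its 5 members, Ccl3, Ccl4, Ccl5, Ccl6 and Ccl9, 3 were higher in KI, 3 in HIF1a KO and all 5 in HIF2a KO and in DKO. Ccl6 (chr11:83587882-83593087), a myeloid chemokine that binds Ccr1, was at 5.96, 3.05, 3.18 and 3.47 CPM in Cre(-) libraries and 9.02, 19.4 and 26.1 in KI. The HIF1a KO values were 28.2, 36.7, 28.2 and 27.8, those of HIF2a KO 11.9, 17.4 and 19.4 and those of DKO 17.4, 15.7 and 18.2 CPM. HIF1a KO libraries stood above all other libraries, and no library with Cre reached down to Cre(-). Ccl6 was 4.67-fold higher in KI (log2 fold change 2.22, SE 0.30, adjusted p = 1.27e-05), 7.76-fold in HIF1a KO (2.96, adjusted p = 5.15e-07), 4.16-fold in HIF2a KO and 4.39-fold in DKO.

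Ccl9 (chr11:83572919-83578636), a close relative next to Ccl6, was also highest in HIF1a KO. It was at 3.43, 2.94, 1.52 and 2.78 CPM in Cre(-) libraries and 7.24, 9.90 and 14.9 in KI. With HIF1a deleted Ccl9 was at 23.9, 27.2, 21.0 and 19.3, with HIF2a deleted at 10.1, 12.7 and 13.0 and with both deleted at 13.4, 9.58 and 11.8 CPM. HIF1a KO libraries again did not overlap with any other group. Ccl9 was 4.00-fold higher than Cre(-) in KI (log2 fold change 2.00, SE 0.26, adjusted p = 6.53e-06), 8.54-fold in HIF1a KO, 4.47-fold in HIF2a KO and 4.34-fold in DKO. HIF1a KO exceeded KI by 2.14-fold (log2 fold change 1.09, SE 0.24, adjusted p = 0.0198). The call was lost without KI replicates 1 and 2 and HIF1a KO replicate 1, each left out in turn (0.88 to 1.07, adjusted p from 0.0526 to 0.0707). Between HIF1a KO and HIF2a KO the difference was 1.91-fold for Ccl9 and 1.86-fold for Ccl6, which did not pass (adjusted p = 0.0928 and 0.154).

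Ccl3 (chr11:83647844-83649355), made by activated macrophages, was at 0.343, 0.695, 0.198 and 0.379 CPM in Cre(-) libraries and 1.21, 2.05 and 1.08 in KI. Ccl3 was at 0.657, 0.934, 0.846 and 0.663 CPM in HIF1a KO, 0.993, 2.67 and 1.47 in HIF2a KO and 2.29, 1.53 and 1.02 in DKO. HIF1a KO libraries overlapped with Cre(-) and lay below all KI libraries, and Ccl3 was 3.48-fold higher in KI (log2 fold change 1.80, SE 0.44, adjusted p = 0.00225), 4.11-fold in HIF2a KO and 3.88-fold in DKO, against 1.87-fold in HIF1a KO (0.90, adjusted p = 0.0782). Ccl4, its neighbour, ranged from 0.252 to 1.03 CPM in Cre(-) and was called in HIF2a KO (1.67, adjusted p = 0.00373) and in DKO (1.33, adjusted p = 0.0177). The DKO call was lost without DKO replicates 1 and 2, each left out in turn (1.18 to 1.21, adjusted p from 0.0555 to 0.0648). Ccl5 (chr11:83525778-83530518), a product of T and NK cells, was at 1.37, 1.66, 1.52 and 1.14 CPM in Cre(-) libraries and 3.10, 7.53 and 0.570 in KI. Of the HIF deletion groups, HIF1a KO had 4.72, 1.92, 6.27 and 4.76, HIF2a KO 12.7, 5.42 and 2.73 and DKO 5.89, 8.90 and 5.66 CPM. KI replicate 3 lay below the Cre(-) libraries and KI replicate 2 and HIF2a KO replicate 1 were the highest of their groups, the order of the summed B cell markers. Ccl5 was 3.09-fold higher than Cre(-) in HIF1a KO (1.63, adjusted p = 0.0283), 4.88-fold in HIF2a KO (2.29, adjusted p = 0.00535) and 4.76-fold in DKO (2.25, adjusted p = 0.00644), and in KI it did not pass (1.39, adjusted p = 0.0725). The HIF1a KO call was lost without Cre(-) replicates 1, 3 and 4 and HIF1a KO replicates 3 and 4, each left out in turn (1.42 to 1.66, adjusted p from 0.0515 to 0.0747). The HIF2a KO call was lost without HIF2a KO replicate 1 (1.52, adjusted p = 0.0531).

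Ccr1, a receptor of these ligands, was higher in KI, HIF1a KO and HIF2a KO. Ccr1 (chr9:123962124-123968692), found on monocytes and macrophages, was at 2.81, 1.71, 1.32 and 1.77 CPM in Cre(-) libraries and 4.19, 6.03 and 7.19 in KI. Values of Ccr1 were 2.51, 8.15, 4.23 and 3.59 CPM in HIF1a KO, 3.24, 5.86 and 4.80 in HIF2a KO and 3.85, 2.95 and 2.93 in DKO. HIF1a KO replicate 1 fell within the Cre(-) range, and Ccr1 was 3.05-fold higher in KI (log2 fold change 1.61, SE 0.36, adjusted p = 0.00116), 2.43-fold in HIF1a KO and 2.44-fold in HIF2a KO, while DKO did not pass (0.77, adjusted p = 0.0823). Of the 8 macrophage markers, 7 were higher and none lower in each group with Cre, and Csf1r was not called. Cd68 alone was at 3.24 to 5.76 CPM in Cre(-) and 1060 to 1151 CPM in KI. Without Cd68, the remaining 7 summed to 193 to 260.0 CPM in Cre(-) and to 646 to 1074 CPM in the libraries with Cre. This sum was 646 to 880 CPM in KI and 801 to 930 in DKO, where Ccr1 was not called. HIF1a KO replicate 2, the highest library in Ccr1, held the lowest sum of its group (736 CPM). In whole kidney, more cells of a type and more RNA per cell cannot be told apart.

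Both membrane-bound chemokines were abundant, and in KI only Cxcl16 was called against Cre(-). Cxcl16 (chr11:70453983-70459984), a transmembrane ligand and scavenger receptor that is shed by Adam10, was at 59.5, 49.1, 59.3 and 55.0 CPM in Cre(-) libraries and 116, 97.3 and 112 in KI. HIF1a KO kidneys held 145, 143, 133 and 130.4, HIF2a KO 139, 181 and 139.9 and DKO 169, 147 and 163 CPM. Groups were tight, and every library with Cre exceeded every Cre(-) library. Cxcl16 was 1.94-fold higher in KI (log2 fold change 0.96, SE 0.10, adjusted p = 1.05e-06), 2.48-fold in HIF1a KO, 2.76-fold in HIF2a KO and 2.87-fold in DKO. All libraries of the 3 HIF deletion groups also lay above all KI libraries. Against KI it was 1.48-fold higher in DKO (log2 fold change 0.56, SE 0.11, adjusted p = 0.0061), which held without each library, and 1.42-fold in HIF2a KO (log2 fold change 0.50, SE 0.11, adjusted p = 0.04), the only member called there. That last call was lost without KI replicates 2 and 3 and HIF2a KO replicates 2 and 3, each left out in turn (0.37 to 0.57, adjusted p from 0.0577 to 0.144). In HIF1a KO the value was 1.27-fold (0.35, adjusted p = 0.061). Exons of Cxcl16 overlap with Zmynd15 on the opposite strand, and the strand setting of the counting is not given in the sources used here.

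The receptor of Cxcl16, Cxcr6 (chr9:123806475-123811760), which marks resident T and NKT cells, was called in no comparison. It was at 1.37, 1.12, 1.12 and 0.946 CPM in Cre(-) libraries and 1.32, 1.40 and 0.228 in KI. In HIF1a KO Cxcr6 was at 1.49, 0.675, 1.74 and 1.44, in HIF2a KO at 4.19, 1.36 and 1.37 and in DKO at 2.14, 2.26 and 2.63 CPM. HIF2a KO replicate 1 was the highest library and KI replicate 3 the lowest. Cx3cl1 (chr8:94772009-94782427), the fractalkine of endothelium and epithelium, was at 85.2, 79.6, 83.9 and 89.5 CPM in Cre(-) libraries and 115, 88.1 and 79.8 in KI. The HIF1a KO values were 123, 97.2, 120.4 and 96.2, those of HIF2a KO 141, 138 and 118 and those of DKO 127, 156 and 144 CPM. KI libraries overlapped with Cre(-) (0.16, adjusted p = 0.296), and all libraries of the HIF deletion groups lay above Cre(-). Cx3cl1 was 1.29-fold higher in HIF1a KO (log2 fold change 0.37, SE 0.12, adjusted p = 0.0122), 1.56-fold in HIF2a KO (0.65, adjusted p = 0.000342) and 1.68-fold in DKO (0.75, adjusted p = 0.000102). DKO exceeded KI by 1.51-fold (log2 fold change 0.59, SE 0.13, adjusted p = 0.012). It was lost without KI replicate 3 and DKO replicate 2, each left out in turn (0.49 to 0.53, adjusted p from 0.0591 to 0.0601).

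Its receptor Cx3cr1 (chr9:119901616-120069879), carried by resident macrophages and patrolling monocytes, was at 7.13, 5.51, 3.51 and 5.17 CPM in Cre(-) libraries and 30.0, 18.9 and 6.39 in KI. With HIF1a deleted Cx3cr1 was at 7.05, 7.63, 13.3 and 8.58, with HIF2a deleted at 29.6, 29.9 and 29.2 and with both deleted at 34.5, 28.9 and 26.6 CPM. HIF2a KO libraries were nearly equal and DKO libraries similar to them, HIF1a KO libraries lay below all of these, and KI spanned a wide range with replicate 3 lowest. Cx3cr1 was 3.45-fold higher than Cre(-) in KI (log2 fold change 1.79, SE 0.37, adjusted p = 0.000623), 5.54-fold in HIF2a KO (2.47, adjusted p = 3.27e-05) and 5.62-fold in DKO (2.49, adjusted p = 3.57e-05), and in HIF1a KO the value was 1.72-fold (0.78, adjusted p = 0.0662). HIF1a KO was 3.22-fold below HIF2a KO without overlap, with an adjusted p of 0.0503 (log2 fold change -1.69, SE 0.35), just outside the threshold.

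Homeostatic and epithelial ligands held calls in both directions, as all genes did. Against Cre(-), 31.6% of all tested genes were higher and 29.3% lower in KI. In the other groups with Cre these shares were 30.4% to 32.0% and 27.9% to 30.1%, and they stand beside the counts of every role. Of the 7 tested ligands of this role, 3 were higher and 2 lower in KI, 4 and 2 in HIF1a KO, 3 and 2 in HIF2a KO and 3 and 2 in DKO. The 2 lower ones were Ccl25 and Ccl27a in each case, whose sign turned on the TPM scale for Ccl25 in KI and for Ccl27a in KI, HIF2a KO and DKO. Cxcl17 (chr7:25400053-25412886), a chemokine of mucosal epithelium, was nearly undetected in Cre(-) kidneys. It was at 0, 0.0535, 0 and 0.0631 CPM in Cre(-) libraries and 1.61, 1.35 and 4.22 in KI. Cxcl17 was at 1.61, 2.08, 1.64 and 1.05 CPM in HIF1a KO, 1.47, 2.01 and 1.32 in HIF2a KO and 0.925, 0.842 and 1.22 in DKO. KI replicate 3 was the highest library, and no library with Cre came near the Cre(-) level. The Cre(-) group held 2 counts in all, so the ratio is loose: 76.2-fold in KI (95% exact counting interval 20.7 to 636), 49.9-fold (13.5 to 417) in HIF1a KO, 51.7-fold (14.0 to 433) in HIF2a KO and 32.1-fold (8.51 to 271) in DKO. These intervals cover counting error only. All 4 differences were called (adjusted p = 6.95e-07, 1.97e-06, 2.59e-06 and 1.77e-05), but Cxcl17 entered the test only through the groups with Cre. Ccl20, the ligand of Ccr6 on lymphocytes and dendritic cells, was detected in 1 Cre(-) library, at 0.189 CPM, and ranged from 0.230 to 0.875 CPM in all libraries with Cre. With 3 counts in the Cre(-) group, its ratio was 8.80 in KI (95% interval 2.64 to 45.9) and 16.6 in HIF2a KO (5.37 to 83.1), and all 4 comparisons passed (adjusted p from 0.000307 to 0.00445). Ccl20 too entered the test only through the groups with Cre. Ccl25, a gut and thymus chemokine, ranged from 10.9 to 12.7 CPM in Cre(-) and from 8.78 to 9.36 in KI, and Ccl27a, the skin chemokine, from 9.06 to 12.7 and from 6.14 to 8.61.

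Cxcl12 (chr6:117168535-117181367), the stromal ligand of Cxcr4, was at 155, 156, 139.7 and 165 CPM in Cre(-) libraries and 191, 195 and 164 in KI. Of the HIF deletion groups, HIF1a KO had 135, 127, 143 and 146, HIF2a KO 154, 109 and 135 and DKO 146, 159 and 145 CPM. In CPM, levels were close in all groups. In TPM, a scale on which all genes shifted upward, KI libraries (97.6 to 133) lay above Cre(-) libraries (65.6 to 79.6). On the count scale KI was 1.19-fold higher than Cre(-) (log2 fold change 0.25, SE 0.10, adjusted p = 0.0457). That call was lost without Cre(-) replicates 1, 2 and 3 and KI replicates 1 and 2, each left out in turn (0.21 to 0.26, adjusted p from 0.0603 to 0.154). HIF1a KO was 1.33-fold lower than KI without overlap (log2 fold change -0.42, SE 0.10, adjusted p = 0.0309). The latter call was lost without KI replicates 1 and 2 and HIF1a KO replicates 1, 2 and 3, each left out in turn (-0.44 to -0.37, adjusted p from 0.0521 to 0.107). The transcript Cxcl12-202 made up between 65.5% and 71.2% of the gene's TPM in the group means. Cxcr4 (chr1:128588199-128592293), the Cxcl12 receptor of most leukocytes, was at 6.03, 4.28, 5.43 and 4.23 CPM in Cre(-) libraries and 8.96, 17.9 and 12.5 in KI. Values of Cxcr4 were 21.8, 12.8, 28.8 and 23.8 CPM in HIF1a KO, 20.4, 13.3 and 8.35 in HIF2a KO and 16.5, 16.4 and 14.8 in DKO. All libraries with Cre lay above Cre(-), and Cxcr4 was 2.64-fold higher in KI (log2 fold change 1.40, SE 0.31, adjusted p = 0.00103), 4.38-fold in HIF1a KO, 2.82-fold in HIF2a KO and 3.19-fold in DKO.

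The atypical receptor Ackr3 (chr1:90203980-90216751), which scavenges Cxcl12 and was among the most abundant members in Cre(-) kidneys, was at 56.5, 46.1, 53.9 and 56.8 CPM in Cre(-) libraries and 48.3, 33.1 and 22.9 in KI. Ackr3 stood at 30.7, 35.4, 34.1 and 31.1 CPM in HIF1a KO, 45.3, 44.2 and 40.0 in HIF2a KO and 39.4, 38.4 and 42.0 in DKO. KI replicate 1 lay within the Cre(-) range and replicates 2 and 3 below it. Ackr3 was 1.53-fold lower in KI (log2 fold change -0.62, SE 0.17, adjusted p = 0.00515) and 1.62-fold lower in HIF1a KO (-0.70, adjusted p = 0.00108). In TPM, a scale on which all genes shifted upward, Ackr3 was at 25.5, 17.3 and 11.1 in KI and 14.8 to 18.9 in HIF1a KO. Cre(-) libraries were at 18.6 to 20.4 TPM, and both groups overlapped with them. The lower value in DKO (-0.42, adjusted p = 0.0431), whose sign turned on the TPM scale, was lost without Cre(-) replicates 1, 3 and 4 and DKO replicates 1, 2 and 3, each left out in turn (-0.45 to -0.39, adjusted p from 0.0678 to 0.113). Ackr4, which scavenges Ccl19, Ccl21 and Ccl25, ranged from 0.754 to 1.59 CPM in Cre(-) and was lower in KI (0.230 to 0.538 CPM, -1.59, adjusted p = 0.00764) and in HIF1a KO (0.467 to 0.741 CPM, -1.16, adjusted p = 0.0203). The second of these was lost without Cre(-) replicates 3 and 4 and HIF1a KO replicate 2, each left out in turn (-1.07 to -1.06, adjusted p from 0.0508 to 0.0528). Ackr2 (chr9:121898355-121911074), which degrades inflammatory CC chemokines, was at 0.959, 0.802, 0.662 and 0.820 CPM in Cre(-) libraries and 0.689, 2.91 and 1.37 in KI. HIF1a KO kidneys held 0.597, 0.830, 1.29 and 0.897, HIF2a KO 1.51, 1.01 and 0.910 and DKO 0.974, 1.42 and 1.07 CPM. KI replicate 2, the library with the high adipocyte and B cell markers, was far above the rest. The higher value in KI (log2 fold change 1.03, SE 0.40, adjusted p = 0.0355) was lost without Cre(-) replicates 2, 3 and 4 and KI replicate 2, each left out in turn (0.34 to 1.03, adjusted p from 0.0605 to 0.454). Ackr1, the erythroid and venular receptor, was not tested, with at most 0.592 CPM.

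Cxcl14 (chr13:56288643-56296551), an epithelial chemokine, was at 26.7, 20.9, 25.4 and 30.0 CPM in Cre(-) libraries and 41.7, 25.6 and 18.6 in KI. In HIF1a KO Cxcl14 was at 48.6, 39.2, 44.1 and 30.5, in HIF2a KO at 70.7, 55.1 and 45.7 and in DKO at 54.3, 75.3 and 57.1 CPM. KI libraries overlapped with Cre(-) (0.15, adjusted p = 0.598), and all HIF2a KO and DKO libraries lay above both. Cxcl14 was 1.58-fold higher than Cre(-) in HIF1a KO (0.66, adjusted p = 0.0173), 2.22-fold in HIF2a KO (1.15, adjusted p = 0.000534) and 2.42-fold in DKO (1.27, adjusted p = 0.000254). The first of these was lost without Cre(-) replicate 2 (0.57, adjusted p = 0.0543). DKO was 2.17-fold above KI (log2 fold change 1.12, SE 0.25, adjusted p = 0.012), which was lost without KI replicate 3 and DKO replicate 2, each left out in turn (0.89 to 0.96, adjusted p from 0.0518 to 0.0611). The value in HIF2a KO was 2.00-fold (1.00, adjusted p = 0.0583).

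Ccl28 (chr13:119623819-119654359), a mucosal chemokine that attracts plasma cells through Ccr10, was at 58.0, 45.3, 49.9 and 15.0 CPM in Cre(-) libraries and 20.7, 22.8 and 35.5 in KI. The HIF1a KO values were 104, 75.9, 60.2 and 62.9, those of HIF2a KO 34.4, 28.7 and 26.5 and those of DKO 42.4, 67.2 and 56.0 CPM. HIF1a KO libraries were the highest as a group and lay above all Cre(-), KI and HIF2a KO libraries, and Cre(-) replicate 4 stood below the other Cre(-) libraries. Ccl28 was 1.80-fold higher in HIF1a KO than in Cre(-) (log2 fold change 0.85, SE 0.31, adjusted p = 0.0269). This was lost without HIF1a KO replicate 1 (0.66, adjusted p = 0.0853). It was 2.87-fold higher than in KI (log2 fold change 1.52, SE 0.35, adjusted p = 0.0233), which was lost without KI replicates 1 and 2 and HIF1a KO replicate 1, each left out in turn (1.33 to 1.43, adjusted p from 0.0648 to 0.0855). DKO was 2.10-fold above KI without overlap (1.07, adjusted p = 0.0656), and HIF1a KO 2.53-fold above HIF2a KO without overlap (1.34, adjusted p = 0.0952). Neither passed. Its receptor Ccr10 (chr11:101172997-101175443) was at 0.754, 1.07, 0.860 and 0.946 CPM in Cre(-) libraries and 0.574, 0.484 and 0.0570 in KI. With HIF1a deleted Ccr10 was at 0.478, 0.363, 0.498 and 0.429, with HIF2a deleted at 0.518, 0.394 and 0.607 and with both deleted at 0.389, 1.00 and 0.585 CPM. It was lower than Cre(-) in KI (-1.27, adjusted p = 0.0305) and in HIF1a KO (-1.03, adjusted p = 0.0444). The KI call was lost without Cre(-) replicates 2 and 4 and KI replicate 3, each left out in turn (-1.26 to -0.77, adjusted p from 0.0506 to 0.0932). That in HIF1a KO was lost without Cre(-) replicates 1, 2, 3 and 4 and HIF1a KO replicates 1, 2, 3 and 4, each left out in turn (-1.11 to -0.94, adjusted p from 0.0504 to 0.0979).

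**Figure D4:**
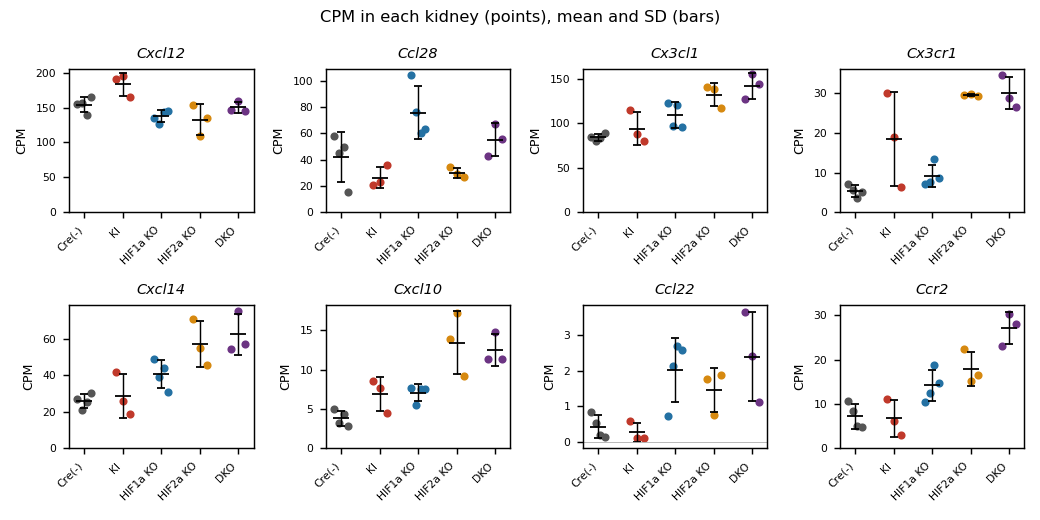
CPM of 8 members by library in the 5 groups, with points for libraries and bars for the mean and SD. Cx3cl1, Cxcl14, Cxcl10 and Ccr2 were highest in HIF2a KO and DKO, and Ccl28 in HIF1a KO. Cx3cr1 was lower in HIF1a KO than in HIF2a KO and DKO. Ccl22 was lower in KI than in the HIF deletion groups and overlapped with Cre(-) there. Cxcl12 was highest in KI by a small margin, with calls that were lost without single libraries.

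Of the interferon-induced ligands of Cxcr3, Cxcl10 was higher in every group with Cre and Cxcl9 in HIF2a KO and DKO. Cxcl10 (chr5:92346638-92348889) was at 4.93, 3.26, 4.30 and 2.78 CPM in Cre(-) libraries and 8.56, 7.64 and 4.45 in KI. Cxcl10 was at 7.70, 5.50, 7.57 and 7.53 CPM in HIF1a KO, 13.9, 17.2 and 9.21 in HIF2a KO and 11.3, 14.8 and 11.4 in DKO. KI replicate 3 lay within the Cre(-) range, and all HIF2a KO and DKO libraries lay above all libraries of the other 3 groups. Cxcl10 was 1.81-fold higher in KI (log2 fold change 0.85, SE 0.26, adjusted p = 0.01), 1.86-fold in HIF1a KO, 3.53-fold in HIF2a KO and 3.28-fold in DKO. Its KI call was lost without KI replicate 1 (0.67, adjusted p = 0.0585). DKO exceeded KI by 1.82-fold (log2 fold change 0.86, SE 0.27, adjusted p = 0.047), which was lost without KI replicates 2 and 3 and DKO replicates 1, 2 and 3, each left out in turn (0.63 to 0.94, adjusted p from 0.0587 to 0.177). HIF2a KO was 1.95-fold above KI (0.96, adjusted p = 0.0765) and HIF1a KO 1.90-fold below HIF2a KO (-0.93, adjusted p = 0.0984), neither passing. Exons of Cxcl10 overlap with Art3 on the opposite strand.

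Cxcl9 (chr5:92321347-92328079), induced by interferon gamma, was at 1.85, 2.51, 2.05 and 3.60 CPM in Cre(-) libraries and 3.68, 14.9 and 0.399 in KI. Of the HIF deletion groups, HIF1a KO had 5.19, 3.06, 10.3 and 6.55, HIF2a KO 26.6, 12.0 and 5.72 and DKO 11.7, 18.2 and 8.98 CPM. Libraries within a group differed widely, with KI replicate 3 below all Cre(-) libraries and HIF2a KO replicate 1 the highest of all. Cxcl9 was 5.89-fold higher in HIF2a KO (log2 fold change 2.56, SE 0.75, adjusted p = 0.00763) and 5.16-fold in DKO (2.37, adjusted p = 0.013). The HIF2a KO difference was lost without HIF2a KO replicate 1 (1.82, adjusted p = 0.0565). Their receptor Cxcr3 (chrX:101731535-101734269), of activated T cells, was at 1.10, 1.18, 0.463 and 0.694 CPM in Cre(-) libraries and 1.15, 2.91 and 0.171 in KI. Values of Cxcr3 were 1.91, 0.882, 3.78 and 2.50 CPM in HIF1a KO, 5.83, 2.10 and 1.42 in HIF2a KO and 3.70, 5.58 and 2.83 in DKO. HIF2a KO replicate 1 was again the highest library and KI replicate 3 the lowest. Cxcr3 was higher in HIF2a KO (1.85, adjusted p = 0.0272) and in DKO (2.22, adjusted p = 0.011). Its HIF2a KO call was lost without Cre(-) replicates 3 and 4 and HIF2a KO replicate 1, each left out in turn (1.03 to 1.76, adjusted p from 0.061 to 0.228). Summed T cell markers were 16.8, 29.5 and 7.53 CPM in the KI replicates, 27.1, 13.5, 40.3 and 29.5 in HIF1a KO, 74.8, 28.1 and 21.5 in HIF2a KO, 10.4 to 12.1 in Cre(-) and 31.7 to 55.2 in DKO, and their part in these differences was not tested.

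Cxcl13 was the only tested ligand of the lymphoid tissue group called in every group with Cre. Cxcl13 (chr5:95956951-95961068), which draws B cells through Cxcr5 and is made by follicular stroma and some macrophages, was at 2.88, 1.60, 2.45 and 1.83 CPM in Cre(-) libraries and 9.31, 74.1 and 65.4 in KI. Cxcl13 stood at 15.1, 11.5, 26.9 and 15.6 CPM in HIF1a KO, 22.4, 15.8 and 11.5 in HIF2a KO and 8.23, 9.42 and 8.78 in DKO. The KI libraries fell into 1 low and 2 high ones, replicate 3 being high in Cxcl13 although its B cell markers were the lowest of the group. Every library with Cre was above Cre(-), and Cxcl13 was 22.8-fold higher in KI (log2 fold change 4.51, SE 0.55, adjusted p = 3.88e-06), 7.95-fold in HIF1a KO, 7.63-fold in HIF2a KO and 4.05-fold in DKO. DKO was 5.63-fold lower than KI (log2 fold change -2.49, SE 0.53, adjusted p = 0.00945), and this held without each library, although KI replicate 1 lay within the DKO range. HIF1a KO and HIF2a KO were 2.87- and 2.99-fold below KI and did not pass (adjusted p = 0.0687 and 0.115).

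Its receptor Cxcr5 (chr9:44511787-44561877), of B cells and follicular T cells, was at 0.274, 0.107, 0.529 and 0.189 CPM in Cre(-) libraries and 0.747, 3.61 and 0.114 in KI. HIF1a KO kidneys held 1.31, 0.571, 3.09 and 1.40, HIF2a KO 5.18, 1.53 and 0.860 and DKO 3.75, 4.26 and 1.56 CPM. Within the KI and HIF2a KO groups the order of libraries was that of the B cell markers, with KI replicate 2 and HIF2a KO replicate 1 high and KI replicate 3 at the Cre(-) level. Cxcr5 was 5.47-fold higher in KI (2.45, adjusted p = 0.0374), 5.82-fold in HIF1a KO (2.54, adjusted p = 0.0244), 9.23-fold in HIF2a KO (3.21, adjusted p = 0.00767) and 11.6-fold in DKO (3.54, adjusted p = 0.00429). The KI call was lost without Cre(-) replicates 1, 2 and 4 and KI replicate 2, each left out in turn (0.67 to 2.46, adjusted p from 0.0674 to 0.601). In HIF1a KO it was lost without Cre(-) replicates 2 and 4 and HIF1a KO replicate 3, each left out in turn (2.01 to 2.41, adjusted p from 0.0585 to 0.0838), and in HIF2a KO without HIF2a KO replicate 1 (2.13, adjusted p = 0.071). Ccr6, of B cells and some T cells, was called in HIF2a KO (2.38, adjusted p = 0.0454) and in DKO (2.77, adjusted p = 0.0227). The first was lost without Cre(-) replicates 1, 2, 3 and 4 and HIF2a KO replicate 1, each left out in turn (1.31 to 2.52, adjusted p from 0.0688 to 0.31). The other was lost without Cre(-) replicate 4 and DKO replicate 2, each left out in turn (2.61, adjusted p from 0.0546 to 0.0554).

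Ccl19 and Ccl21, the ligands that guide T cells and dendritic cells into lymph nodes through Ccr7, lie in a duplicated region of chromosome 4 and of unplaced scaffolds, and reads of near-identical copies can be split between them, so single copies are uncertain. Ccl19 ranged from 3.11 to 3.90 CPM in Cre(-) and was called in HIF2a KO (1.64, adjusted p = 0.0121) and in DKO (1.53, adjusted p = 0.019). The former was lost without HIF2a KO replicate 1 (0.84, adjusted p = 0.158). The latter was lost without DKO replicates 1 and 2, each left out in turn (1.36 to 1.41, adjusted p from 0.0572 to 0.0626). Ccl21a was called in HIF1a KO (0.96, adjusted p = 0.0422), which was lost without Cre(-) replicates 3 and 4 and HIF1a KO replicates 1 and 2, each left out in turn (0.75 to 0.98, adjusted p from 0.0611 to 0.125). The scaffold copy of Ccl21a was at 3.91, 3.10, 1.79 and 2.78 CPM in Cre(-) libraries and 1.95, 1.02 and 0.399 in KI. In HIF1a KO this copy was at 2.21, 1.92, 2.89 and 3.94, in HIF2a KO at 6.73, 2.49 and 4.15 and in DKO at 3.12, 4.05 and 3.17 CPM. It was lower in KI than in Cre(-) (-1.36, adjusted p = 0.0172) and higher in DKO than in KI (1.61, adjusted p = 0.0374). The difference between KI and Cre(-) was lost without KI replicates 2 and 3, each left out in turn (-1.29 to -0.96, adjusted p from 0.0558 to 0.0744). The one between DKO and KI was lost without KI replicates 2 and 3 and DKO replicates 1, 2 and 3, each left out in turn (1.21 to 1.68, adjusted p from 0.0525 to 0.129). Ccl21c and the first scaffold copy of Ccl21b had identical values in every library and were called nowhere, and Ccl21b on chromosome 4, its second scaffold copy and the scaffold copy of Ccl19 had no counts. Ccr7 was called in HIF1a KO (2.16, adjusted p = 0.0114), HIF2a KO (2.67, adjusted p = 0.00366) and DKO (2.84, adjusted p = 0.00253), from 0.132 to 0.505 CPM in Cre(-), and in KI its libraries ranged from 0.0570 to 1.94 CPM (1.32, adjusted p = 0.135).

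**Figure D5:**
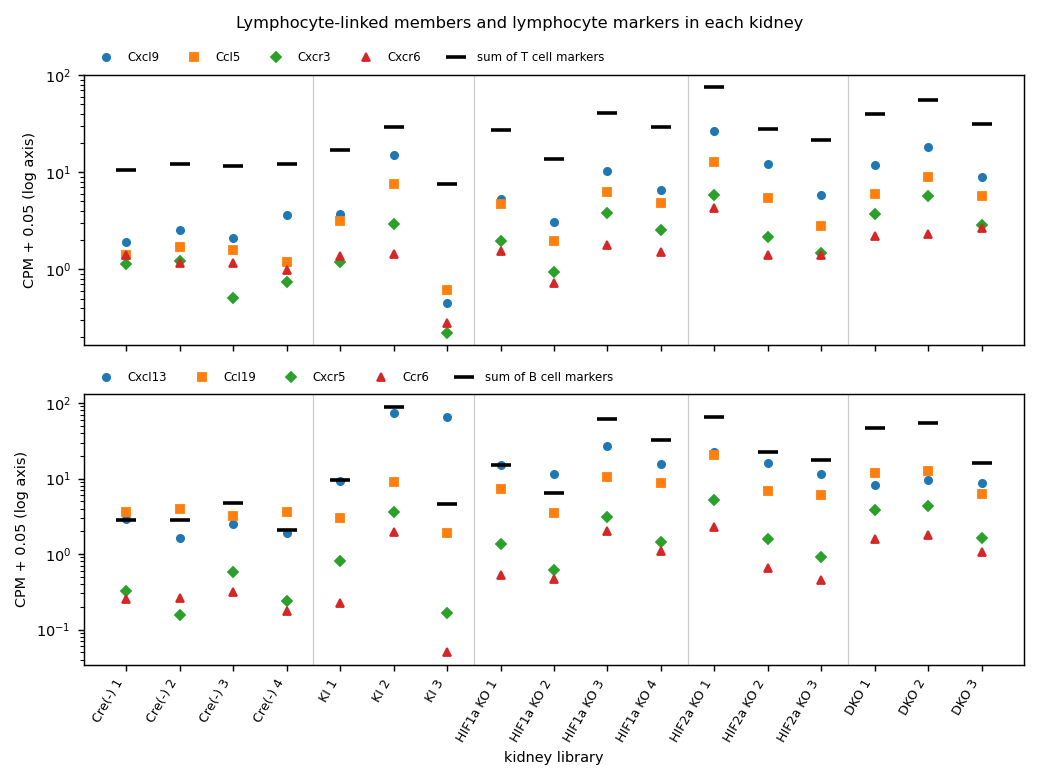
CPM + 0.05 on a log axis, by library, of Cxcl9, Ccl5, Cxcr3 and Cxcr6 with the summed T cell markers (top) and of Cxcl13, Ccl19, Cxcr5 and Ccr6 with the summed B cell markers (bottom). KI replicate 3 is the lowest KI library in all but Cxcl13, and HIF2a KO replicate 1 is the highest of its group in all 8 members.

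Of the type 2 and other ligands, none of 5 tested was called in KI, 2 were higher in HIF1a KO and 3 each in HIF2a KO and DKO. Ccl22 (chr8:94745590-94751699), a macrophage and dendritic cell product that binds Ccr4, was at 0.822, 0.535, 0.198 and 0.126 CPM in Cre(-) libraries and 0.574, 0.108 and 0.114 in KI. The HIF1a KO values were 0.716, 2.13, 2.69 and 2.57, those of HIF2a KO 1.77, 0.743 and 1.87 and those of DKO 3.65, 2.42 and 1.12 CPM. KI replicates 2 and 3 lay just below the lowest Cre(-) library, and libraries of the HIF deletion groups lay above all KI libraries. Ccl22 was 4.80-fold higher than Cre(-) in HIF1a KO (2.26, adjusted p = 0.00495), 3.43-fold in HIF2a KO (1.78, adjusted p = 0.0272) and 5.64-fold in DKO (2.50, adjusted p = 0.00369). Its HIF2a KO difference was lost without Cre(-) replicates 3 and 4 and HIF2a KO replicates 1 and 3, each left out in turn (1.48 to 1.62, adjusted p from 0.0716 to 0.0825). HIF1a KO exceeded KI by 7.59-fold (log2 fold change 2.92, SE 0.72, adjusted p = 0.0309), which was lost without KI replicates 2 and 3 and HIF1a KO replicates 3 and 4, each left out in turn (2.55 to 2.78, adjusted p from 0.0588 to 0.108). It was 8.92-fold higher in DKO (log2 fold change 3.16, SE 0.75, adjusted p = 0.0146), which was lost without KI replicates 2 and 3, each left out in turn (2.78 to 2.81, adjusted p from 0.0531 to 0.0664). Ccl17, the other Ccr4 ligand, lies on the far side of Cx3cl1 in the same stretch of chromosome 8 (94745590 to 94812036). It was higher in HIF1a KO (2.77, adjusted p = 0.000513), HIF2a KO (2.37, adjusted p = 0.00271) and DKO (2.29, adjusted p = 0.00387) but not called in KI (0.84, adjusted p = 0.283). Against Cre(-), all 3 genes of this stretch were thus called in each HIF deletion group and none in KI. Tested directly against KI, 1 of the 3 was higher in HIF1a KO (Ccl22), 0 in HIF2a KO and 2 in DKO (Ccl22 and Cx3cl1). In TPM, the KI libraries of Cx3cl1 (38.0 to 57.3) lay above those of Cre(-) (28.3 to 31.4). Ccr4 itself was not tested (at most 0.584 CPM).

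Xcl1 (chr1:164931644-164935527), a product of NK and CD8 T cells, was at 0.411, 0.321, 0.198 and 0.189 CPM in Cre(-) libraries and 0.287, 0.269 and 0.0570 in KI. With HIF1a deleted Xcl1 was at 0.239, 0.259, 0.249 and 0.351, with HIF2a deleted at 1.34, 0.394 and 0.405 and with both deleted at 0.681, 0.842 and 0.780 CPM. HIF2a KO replicate 1 was the highest library. Xcl1 was higher than Cre(-) in HIF2a KO (1.34, adjusted p = 0.0279) and in DKO (1.43, adjusted p = 0.0211). The HIF2a KO value was lost without Cre(-) replicates 3 and 4 and HIF2a KO replicate 1, each left out in turn (0.50 to 1.21, adjusted p from 0.0679 to 0.379). The DKO value was lost without Cre(-) replicates 3 and 4 and DKO replicate 2, each left out in turn (1.29 to 1.37, adjusted p from 0.0532 to 0.0558). DKO was 3.66-fold above KI (1.87, adjusted p = 0.0381), which was lost without KI replicates 2 and 3 and DKO replicates 1, 2 and 3, each left out in turn (1.44 to 2.12, adjusted p from 0.0544 to 0.142). Its receptor Xcr1 (chr9:123852315-123862029), of cross-presenting dendritic cells, was at 1.71, 2.62, 0.926 and 1.39 CPM in Cre(-) libraries and 1.38, 0.323 and 0.285 in KI. Xcr1 was at 1.49, 0.882, 1.14 and 1.56 CPM in HIF1a KO, 4.36, 1.01 and 2.02 in HIF2a KO and 2.68, 4.47 and 2.29 in DKO. DKO was 4.73-fold above KI without overlap (2.24, adjusted p = 0.027), which was lost without KI replicates 2 and 3 and DKO replicates 2 and 3, each left out in turn (1.89 to 2.43, adjusted p from 0.0511 to 0.11). No group with Cre was called against Cre(-). Of the 5 dendritic cell markers 3 were also higher in DKO than in KI, namely Clec9a (1.90, adjusted p = 0.00901), Flt3 (1.59, adjusted p = 0.0219) and Itgax (1.36, adjusted p = 0.0208), and their part in the difference of Xcr1 was not tested. Ccl11 and Ccl24, which attract eosinophils through Ccr3, were called nowhere. Ccr3 (at most 0.263 CPM), Ccr8 (at most 0.345), Ccr1l1 (at most 0.239) and Ccl1 (at most 0.146) were not tested, and Ccl26 and Ccl27b had no counts. Ccl27 and its scaffold copy, at most 0.963 and 0.119 CPM, were not tested either.

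Ccr9 (chr9:123678439-123784330), the Ccl25 receptor of gut-homing lymphocytes, was at 2.33, 2.35, 2.51 and 1.58 CPM in Cre(-) libraries and 1.03, 1.45 and 1.14 in KI. Of the HIF deletion groups, HIF1a KO had 2.21, 1.82, 2.89 and 1.91, HIF2a KO 1.34, 1.62 and 1.57 and DKO 2.29, 2.42 and 2.10 CPM. KI libraries lay below all Cre(-), HIF1a KO and DKO libraries. Ccr9 was 1.81-fold lower in KI than in Cre(-) (log2 fold change -0.85, SE 0.23, adjusted p = 0.00444). In HIF2a KO (-0.54, adjusted p = 0.0461) the call was lost without Cre(-) replicates 1, 2 and 3 and HIF2a KO replicates 1, 2 and 3, each left out in turn (-0.59 to -0.46, adjusted p from 0.0705 to 0.14), its sign turning on the TPM scale. Against KI it was 1.82-fold higher in HIF1a KO (0.86, adjusted p = 0.0394), which was lost without KI replicates 1, 2 and 3 and HIF1a KO replicates 1, 3 and 4, each left out in turn (0.70 to 1.01, adjusted p from 0.0521 to 0.125). It was 1.87-fold higher in DKO (0.90, adjusted p = 0.0248), which was lost without KI replicates 1 and 3 and DKO replicates 2 and 3, each left out in turn (0.80 to 0.96, adjusted p from 0.0567 to 0.0889). Exons of Ccr9 overlap with Slc6a20a, a kidney transporter gene, on the opposite strand.

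Among the kidneys with Cre, fewer members were called. HIF1a KO against KI had 5 higher and 1 lower of 53 (background 2.57% and 2.86%), of which none was called without each library in turn. HIF2a KO against KI had 1 higher and 0 lower (background 0.741% and 0.647%). DKO against KI had 11 higher and 1 lower (background 6.53% and 6.19%), of which 4, namely Ccr2, Cxcl5, Cxcl13 and Cxcl16, were called without each library in turn. These counts rest on single KI libraries: the number called in DKO was 4 without KI replicate 3 and 15 without KI replicate 1, in HIF2a KO 0 without KI replicate 2, KI replicate 3, HIF2a KO replicate 2 or HIF2a KO replicate 3 and 10 without KI replicate 1, and in HIF1a KO 0 without KI replicate 2 and 1, 2 and 3 without HIF1a KO replicates 1, 3 and 4. The 3 comparisons share the KI libraries. Cell type markers were called against KI as well: in DKO 6 of 8 kidney tubule, 4 of 6 fibroblast, 3 of 5 dendritic cell, 1 of 3 tested NK cell and 1 of 7 T cell markers were higher, and 1 of 8 macrophage and 1 of 3 tested lymph node stroma markers were higher and 1 each lower. In HIF1a KO 4 kidney tubule, 2 fibroblast, 2 macrophage, 1 NK cell and 1 dendritic cell marker were higher and 1 macrophage marker lower, and in HIF2a KO 2 fibroblast and 1 kidney tubule marker were higher. The tested genes listed for lymph node stroma were Prox1 (higher in DKO), Lyve1 (lower in DKO) and Cr2, and whether they mark it in kidney was not tested. The part of all these markers in the members' differences was not tested.

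HIF1a KO against HIF2a KO had no member called by edgeR at an adjusted p under 0.05 (background 0.429%), 16 at an unadjusted p under 0.05 (background 14.9%), 6 by DESeq2 (background 3.16%) and 0 by limma on log2(TPM + 1). The interaction of the deletions, which asks whether DKO departs from the sum of the single deletions, had 0 members called by edgeR (background 0%), by DESeq2 (0.182%) and by limma, and 6 at an unadjusted p under 0.05 (background 5.95%).

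Genes of the same pathway outside the naming rule were counted as well. Of 20 genes of chemokine receptor signalling, 12 were higher and 2 lower in KI against Cre(-), 13 and 1 in HIF1a KO, 13 and 2 in HIF2a KO and 15 and 1 in DKO. Rac2, a GTPase of leukocytes, had a log2 fold change of 2.03 in KI, Gnai2, a G protein subunit of these receptors, of 0.96, and Rgs2, a brake on G protein signalling, of −0.62. Of 15 tested genes of the NF-kB, interferon and cytokine signals that control chemokine genes, 11 were higher in KI, 12 in HIF1a KO, 14 in HIF2a KO and 13 in DKO, and none lower, with Tnf (2.37 in KI), Relb (1.52) and Nfkb2 (1.30) among them. The list also holds Nfkbia, Nfkbie and Tnfaip3, which NF-kB induces and which restrain it, and these 3 were among the higher ones in KI (0.91, 1.47 and 2.38). Of 9 genes for shedding, cleavage and presentation, 3 were higher and 3 lower in KI: the sheddases Adam10 (0.99) and Adam17 (0.54) were higher and the protease Dpp4, which inactivates several chemokines, was lower (−1.07). These shares stand beside 31.6% higher and 29.3% lower among all genes in KI.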

How the data were processed

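Total RNA of whole kidneys was prepared with TRIzol, checked for integrity, made into stranded mRNA libraries and sequenced as single-end reads of 75 nt. The submitters' processing notes list Trim Galore 0.6.6, cutadapt 2.5 and STAR 2.7.9a and the builds GRCm38 and hg38, and the study's methods name RSEM for quantification. The deposited table lists mouse transcripts, each with expected counts (estimates by the authors that need not be whole) and TPM values, which the authors scaled for transcript length and library size. The study's methods name a UCSC annotation of hg38 or GRCm38, and the strand setting of the counting is not given in the sources used here.

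Of 119353 transcripts, 116770 (97.8%, holding 99.04 to 99.24% of the counts) were matched to GENCODE M21 by identifier and summed to 35971 genes, 21897 of them protein-coding. Coordinates are GRCm38. Summed expected counts were rounded and tested with edgeR 4.0.16 (quasi-likelihood, TMM, filterByExpr with a minimum count of 10) in R 4.3.3. All 17 libraries entered, with 1 coefficient per genotype group, and p-values were adjusted by Benjamini-Hochberg over all 17011 genes tested (18960 were too low), with a threshold of 0.05. All p-values are two-sided and measure the spread between these samples, which the labels do not describe further. CPM were taken on TMM-scaled library sizes. A count of 3 in a library is 0.117 to 0.206 CPM, and floors and intervals cover counting error only. No 2 libraries held identical values.

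Alternatives were DESeq2 1.42.0 (also its size factors in edgeR), no filter, replicate numbers as a block, fits to 2 groups at a time, limma 3.58.1 on log2(TPM + 1) and on log2(TPM + 0.1), subsets of the Cre(-) mice, and each library left out in turn. Summing near-identical gene copies was added after seeing the data. The fit was tested on simulated data, and tables and plots were made with Python 3.11.15, pandas 2.3.3, numpy 2.4.6 and matplotlib 3.10.9.

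The members, gene lists (pathway genes and cell type markers) and tests were chosen with earlier results of these data known. Every member was accounted for in the counts, and 1 tested member is not reported here by name or in the heat map. Values by library were given for the 15 members called among groups with Cre, for at most 20 of the 26 called in KI against Cre(-) with at least 1 TPM in either group, by size of change, and for 7 ligand or receptor partners of these. Replicate numbers do not pair the samples (values under the processing alternatives).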

Additional observations from a re-analysis of the deposited data

Results flagged for a closer look

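In groups of 4 libraries, 1 library was set apart from the other 3 by more than Dixon's 95% limit in 10 of 106 sets of member values, where chance gives about 1 in 20. In Cre(-), Ccl6 was at 5.96 CPM in replicate 1 against 3.05 to 3.47 in the others, Cxcl5 at 0.107 in replicate 2 against 0.0631 to 0.0685, Cxcl1 at 0.860 in replicate 3 against 0.480 to 0.505, and Ccl20 at 0.189 in replicate 4 against 0. In HIF1a KO, Ccl6 was at 36.7 CPM in replicate 2 against 27.8 to 28.2, and Cxcl10 at 5.50 in the same replicate against 7.53 to 7.70. Cxcl2 was at 1.54 CPM in HIF1a KO replicate 3 against 2.49 to 2.65, and Cxcl15 at 0.858 in replicate 4 against 0.398 to 0.467. The first scaffold copy of Ccl21b and Ccl21c, which carry identical values, were at 0.597 CPM in HIF1a KO replicate 1 against 0.149 to 0.208. The causes were not tested. The interaction of the deletions, which asks whether DKO departs from their sum, called no member in edgeR, DESeq2 or limma. Of all tested genes it called 0% in edgeR and 0.182% in DESeq2, so the lack of a called member says little about the members.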

How the results depend on the processing

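Of 160 called differences of members, 85 were called in the same direction under every alternative and 94 under every count-based one. DESeq2 lost 2, its size factors 1, no filter 9, the groups compared alone 20 of 147, the Cre(-) mice with the HIF1a flox allele alone 37 of 141 and those without it 26 of 141, and summed gene copies 1 of 158. On log2(TPM + 1), log2(TPM + 0.1) and log2(TPM + 1) without a filter 19, 17 and 25 were lost and 6 reversed: Ccl25 in KI (0.0158, 0.0177 and 0.0158), Ccl27a in KI (0.0107, 0.0112 and 0.0107), HIF2a KO (0.0248, 0.0259 and 0.0248) and DKO (0.121, 0.127 and 0.121), Ccr9 in HIF2a KO (0.0117, 0.0347 and 0.0117) and Ackr3 in DKO (0.131, 0.136 and 0.131). On that scale all genes shifted upward. Members called in HIF1a KO against KI numbered 11 with DESeq2, 1 with these groups alone and 2 on log2(TPM + 1) without a filter. For HIF2a KO against KI they numbered 10 with DESeq2, 0 with these groups alone, 4 on log2(TPM + 1), 0 on log2(TPM + 0.1) and 0 without a filter on TPM. For DKO against KI they numbered 3 with these groups alone, and for HIF1a KO against HIF2a KO 6 with DESeq2, 1 without a filter and 3 with these groups alone. Leaving out 1 library at a time gave 27 to 34 called members in KI against Cre(-), 28 to 34 in HIF1a KO, 31 to 40 in HIF2a KO and 34 to 38 in DKO. Against KI it gave 0 to 6 in HIF1a KO, 0 to 10 in HIF2a KO and 4 to 15 in DKO, and 0 for HIF1a KO against HIF2a KO and for the interaction. Of 1141 such values 149 were lost and 0 reversed. Where no cause is given, the cause was not tested.

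With the replicate number as a block, 14 of 160 calls were lost, and 3 members were called in HIF1a KO against KI and 0 in HIF2a KO against KI. Deviations of the 31 pairs of libraries with the same number correlated at -0.223 to 0.249 (median -0.034) and those of the 84 other pairs at a median of 0.012, so the numbers were taken as names only. Members with few counts, such as Ccl20, Cxcl17 and the copies of Ccl21, are limited by depth, and no difference below the floor was detectable.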

Other observations

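Genes of the chemokine family whose symbols fall outside the naming rule were also measured. Of 8 such genes 7 were tested, of which 4 were higher and 1 lower in KI against Cre(-), 3 and 1 in HIF1a KO, 3 and 1 in HIF2a KO and 4 and 1 in DKO. These few genes stand beside 30.4% to 32.0% higher and 27.9% to 30.1% lower among all tested genes in the 4 comparisons. In KI, Pf4, the platelet and macrophage chemokine also called Cxcl4, had a log2 fold change of 2.99 (SE 0.29, edgeR adjusted p = 3.49e-07). Cd74, the receptor of Mif, was higher by 1.87, Cmklr1, the chemerin receptor, by 0.96 and Mif itself by 0.54 on the log2 scale, and Ccrl2 was lower, at -0.91. For Cxcl16 the transcript Cxcl16-202 made up 64.6% to 68.7% of the gene's TPM in the group means and the next most abundant one 28.4% to 32.6%.

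Of the pathway genes, HIF1a KO against KI had Mif lower (-0.53, adjusted p = 0.0416), HIF2a KO against KI had Plcb2 and Irf7 higher, and DKO against KI had Plcb2, Plcb3, Irf1 and Sdc2 higher and Mif lower. These were named after their values were seen. Marker lists of other cell types in whole kidney gave the following counts in KI, HIF1a KO, HIF2a KO and DKO against Cre(-). Among all tested genes, 30.4% to 32.0% were higher and 27.9% to 30.1% lower in these comparisons. All 6 leukocyte markers were higher in each. Of 7 T cell markers 1, 3, 6 and 6 were higher, of 5 B cell markers 5, 4, 5 and 5, of 3 tested NK cell markers 0, 1, 1 and 1, and of 3 tested neutrophil markers 1, 1, 2 and 1, with none lower. Of 5 dendritic cell markers 1, 2, 1 and 2 were higher and 2, 0, 0 and 0 lower. Of 6 fibroblast markers 4, 4, 4 and 5 were higher, and of 6 endothelial markers 4, 2, 3 and 3 were lower. Of 3 tested genes listed as lymph node stroma markers (Cr2, Lyve1 and Prox1) 1, 1, 1 and 0 were higher and 2, 2, 1 and 1 lower. Whether these genes mark such stroma in kidney was not tested. Of 5 adipocyte markers 3, 0, 0 and 0 were higher and 0, 1, 0 and 0 lower, and of 8 kidney tubule markers 8, 6, 7 and 6 were lower. Their part in the differences of the members was not tested.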
